A study of Mus musculus with 6 samples.

Results

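The genes described here encode proteins that build ribosomes in the nucleolus. They were chosen by symbol from a list of 55 factors of RNA polymerase I transcription, pre-ribosomal RNA (pre-rRNA) processing and modification, assembly of both ribosomal subunits and nucleolar organisation. Of these, 53 had a transcript cluster, the array's unit of measurement, annotated with that gene symbol and no other, out of 19938 genes measured in this way. *Noc2l* and *Npm3* had none and were not analysed here.

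*Paupar* is a long noncoding RNA transcribed upstream of *Pax6*. It was targeted in N2A cells, a mouse neuroblastoma line, and the 2 groups were a *Paupar* knockdown (3 arrays) and a control (3 arrays). Knockdown cells received, by transient transfection, 1.5 µg of a plasmid whose U6 promoter drives a short hairpin RNA (shRNA) against *Paupar*, and control cells a non-targeting vector. Both groups were grown in 10% fetal bovine serum, transfected with FuGENE 6 and, per the labels, harvested 2.5 days later, and 200 ng of total RNA per sample was hybridised to Affymetrix Mouse Gene 1.0 ST arrays. The study's methods call the samples of a group biological replicates. How the cultures of a group were separated is not given in the sources used here, so the p-values measure the spread between these samples. Transient transfection of a single line limits the model further, because the RNA is that of transfected and untransfected cells together. In such bulk RNA, fewer cells of a type and less RNA per cell cannot be told apart. The values are log2 RMA expression values, scaled so that all arrays have the same distribution, and a level is therefore relative to the other transcripts of the array and not per cell. No transcript cluster carried the symbol *Paupar*, and the size of the knockdown was not analysed here. The oligonucleotide for the *Paupar* hairpin that the study calls sh408 shows what the knockdown cells received, with the loop and the closing stretch (a run of T and a final C) in capitals:
Pauparsh408FOR: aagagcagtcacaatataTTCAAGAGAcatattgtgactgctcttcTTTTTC

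Ribosome production starts with transcription of ribosomal DNA by RNA polymerase I, which makes a long pre-rRNA. Box C/D and box H/ACA small nucleolar ribonucleoproteins (snoRNPs) then modify it, the small subunit processome and the 60S assembly factors fold and cut it, and ribosomal proteins are added. The pathway is active in growing and dividing cells, and many of its genes are known targets of MYC proteins, of which MYCN is a driver of neuroblastoma.

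Over all genes the arrays were alike in level, which does not show how closely the replicates agreed for a given gene. The lowest correlation between 2 arrays was 0.990, and array medians over all genes lay between 7.85 and 7.92. All 10 measured markers of sympathetic neuroblastoma lay above the array median on every array, a comparison that is no detection call. So did 2 of 8 fibroblast markers, 0 of 7 glial markers and 0 of 7 markers of blood and endothelium. In the last 3 lists the filter described below kept 5, 1 and 3 genes, in that order, and 0 of these passed the test described below. The levels of these lists overlapped between groups. The mean level of the fibroblast list was 7.54 to 7.63 in knockdown and 7.42 to 7.64 in control. That of the glial list was 6.88 to 6.92 and 6.74 to 6.90, and that of the blood and endothelium list 6.78 to 6.89 and 6.67 to 6.86. Of the 10 sympathetic markers 9 passed the filter described below. *Dbh* (log2 fold change -1.09), *Th* (-0.68) and *Chgb* (-0.45) fell upon *Paupar* knockdown. They were 33.3% of those tested, against 5.16% of all genes called lower. The other 6 tested had no call, and 1 of the 10 markers had a positive difference. The bearing of these shifts on the results below was not tested.

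Few ribosome biogenesis genes changed upon *Paupar* knockdown. *Gar1* and *Tcof1* rose and *Rrn3* fell, by factors of 1.53, 1.40 and 1.40, and the other 50 measured genes did not pass the test. Of the 53 genes, 38 passed a filter that removed the less variable 50% of all genes, and the 3 changed genes were 7.89% of these (limma, Benjamini-Hochberg adjusted p under 0.05). The same test called 7.54% of all 9969 genes that passed the filter, 2.39% as higher and 5.16% as lower in knockdown, so the share among the ribosome biogenesis genes lay near that of all genes. The 15 genes removed by the filter had log2 fold changes between -0.04 and 0.19, and their lowest unadjusted p was 0.130 in a limma fit without the filter.

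**Figure D1:**
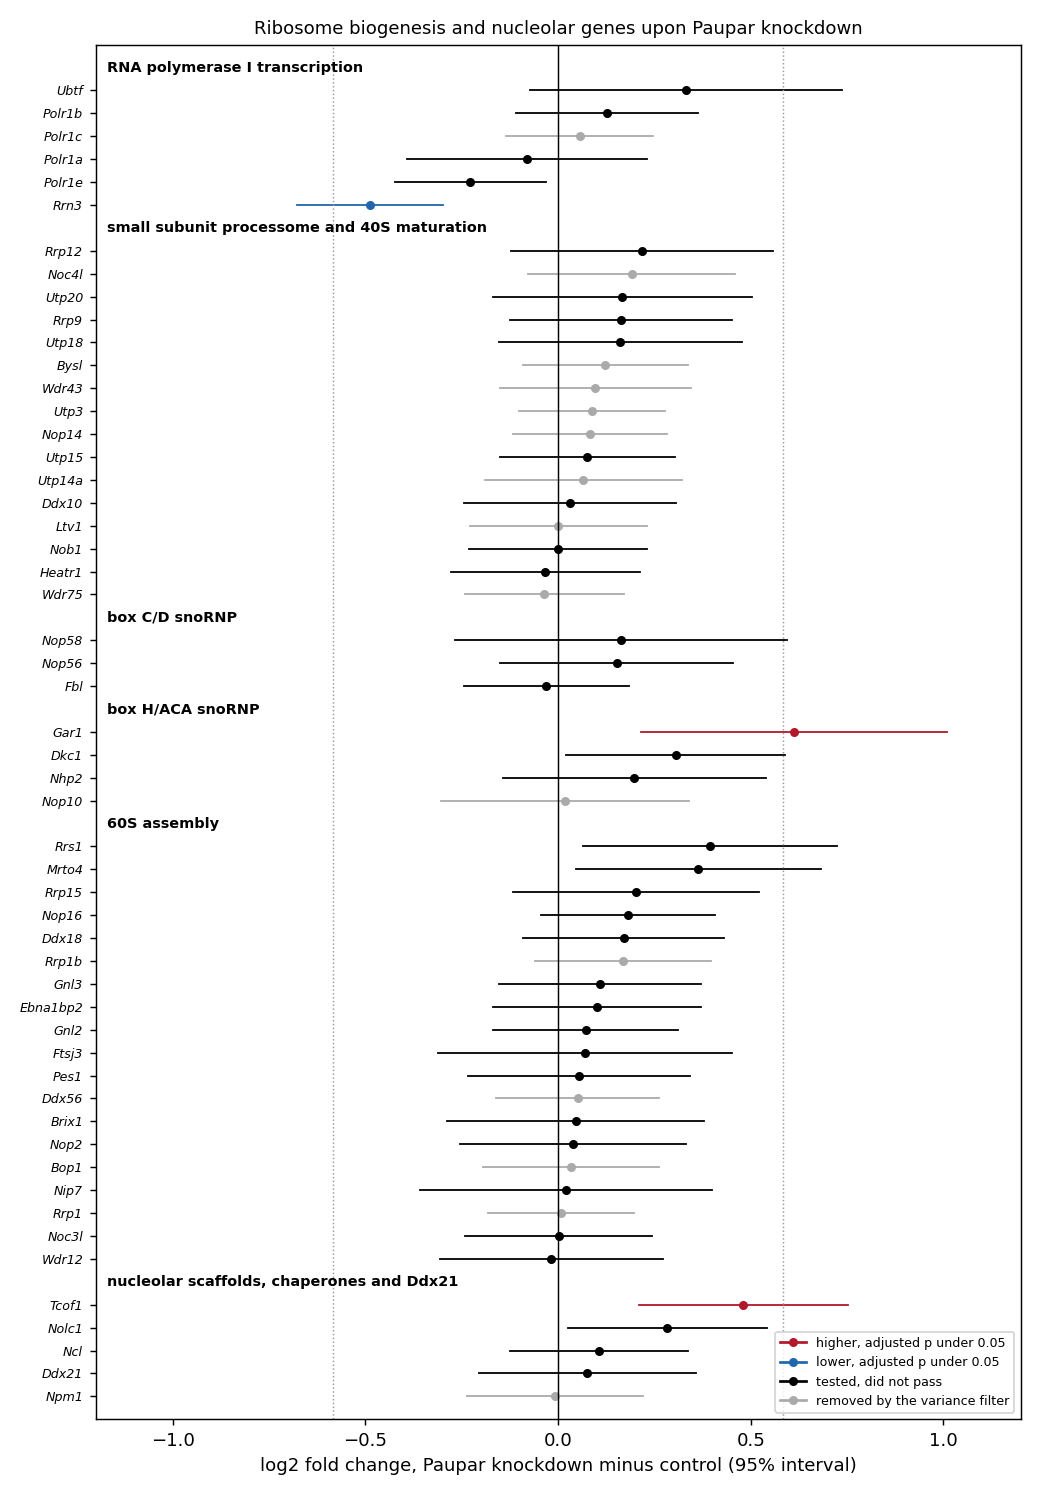
Log2 fold change (x axis, knockdown minus control) of each of the 53 measured ribosome biogenesis genes (y axis, grouped by role), with points for the difference of group means and bars for the 95% interval of the limma fit to all genes (n = 3 arrays per group). Red and blue mark genes that passed the test as higher and lower, black those that did not pass and grey those removed by the filter, and dotted lines mark a factor of 1.5 in either direction. Most points lie slightly to the right of 0, *Gar1* and *Tcof1* lie farthest to the right and *Rrn3* farthest to the left.

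The step that recruits RNA polymerase I held the only fall. *Rrn3*, known as TIF-IA, joins RNA polymerase I to the factors bound at the ribosomal DNA promoter. It had values of 11.15, 11.18 and 11.27 in knockdown and 11.60, 11.78 and 11.68 in control. All 3 knockdown values lay below all 3 control values, and the replicates of each group were close. The means were 11.20 ± 0.06 in knockdown and 11.69 ± 0.09 in control (SD, n = 3 each), a log2 fold change of -0.49 (SE 0.12, limma adjusted p = 0.0238). The fall lay between -0.53 and -0.44 whichever array was left out. It missed the threshold without knockdown replicate 1 (adjusted p = 0.110), knockdown replicate 2 (0.111), control replicate 2 (0.0530) or control replicate 3 (0.0924), and when clusters with no single gene name were tested as well (0.171).

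The rest of the RNA polymerase I group had no call. *Ubtf*, the upstream binding factor that keeps ribosomal DNA open for transcription, had 11.57, 11.54 and 11.02 in knockdown and 10.70, 11.30 and 11.13 in control. Knockdown replicates 1 and 2 were above every control, whereas knockdown replicate 3 was below control replicates 2 and 3. The log2 fold change of 0.33 did not pass the test (limma adjusted p = 0.234). The polymerase subunit gene *Polr1e* had 8.97, 8.97 and 8.95 in knockdown and 9.05, 9.26 and 9.26 in control. It and *Rrn3* were the only measured genes of the 55 whose knockdown values all lay below the control values, a pattern found for 10.8% of all genes, and its difference of -0.23 did not pass (limma adjusted p = 0.229). *Polr1b*, which encodes the second largest polymerase subunit, had a log2 fold change of 0.13 (limma adjusted p = 0.546), *Polr1a*, the largest subunit, -0.08, and *Polr1c*, a subunit shared with RNA polymerase III, 0.06.

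The box H/ACA group held the largest rise. Its proteins, with a guide RNA, convert uridine to pseudouridine in rRNA, and they are also part of telomerase. *Gar1*, a core protein of these particles, had 11.40, 11.37 and 10.75 in knockdown and 10.31, 10.74 and 10.63 in control. The groups did not overlap, but knockdown replicate 3 lay just above control replicate 2. The means were 11.17 ± 0.36 in knockdown and 10.56 ± 0.23 in control (SD, n = 3 each), a log2 fold change of 0.61 (SE 0.17, limma adjusted p = 0.0450). Leaving out single arrays gave values between 0.49 and 0.82. The call was lost without control replicate 1 (adjusted p = 0.134) or control replicate 3 (0.142), and without knockdown replicate 1 (log2 fold change 0.50) or 2 (0.51) *Gar1* no longer passed the filter. It was also lost without the filter (adjusted p = 0.0991), with each array centred on its median (0.0505) and when clusters with no single gene name were tested as well (0.233).

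The other H/ACA genes had positive differences with no call. *Dkc1*, which encodes the pseudouridine synthase dyskerin, had 10.71, 10.72 and 10.39 in knockdown and 10.07, 10.41 and 10.42 in control. Its knockdown replicate 3 fell among the controls, and the log2 fold change of 0.31 had an unadjusted p of 0.0448 and an adjusted p of 0.180 in limma. *Nhp2* had a log2 fold change of 0.20, and *Nop10*, which was removed by the filter, 0.02. The 95% interval of *Nop10* reached from -0.30 to 0.34, which leaves room for a modest change in either direction.

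The promoters of *Gar1* and *Rrn3* are shown because these genes had the largest changes in either direction. *Tcof1*, which also changed, had no promoter sequence in the reference used here and was not searched. Each window runs from 250 bases before to 50 bases after the gene start in RefSeq (GRCm38.p6). Capitals mark CACGTG, the palindromic E-box that MYC family proteins can bind, searched on both strands.
*Rrn3*, chr16:13780449-13780748, plus strand: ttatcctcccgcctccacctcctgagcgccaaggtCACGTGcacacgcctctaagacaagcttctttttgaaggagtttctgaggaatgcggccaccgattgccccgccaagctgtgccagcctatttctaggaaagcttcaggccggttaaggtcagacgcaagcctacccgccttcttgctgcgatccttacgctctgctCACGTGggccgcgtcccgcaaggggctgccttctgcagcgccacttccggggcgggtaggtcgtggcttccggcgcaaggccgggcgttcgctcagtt
*Gar1*, chr3:129831347-129831646, minus strand: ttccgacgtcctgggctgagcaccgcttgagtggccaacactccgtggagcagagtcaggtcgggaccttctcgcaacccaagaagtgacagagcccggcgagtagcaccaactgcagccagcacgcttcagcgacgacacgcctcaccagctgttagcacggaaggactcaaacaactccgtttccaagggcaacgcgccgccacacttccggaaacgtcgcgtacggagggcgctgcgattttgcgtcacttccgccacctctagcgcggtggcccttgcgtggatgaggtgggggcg
The *Rrn3* window held 2 copies of CACGTG, beginning at -215 and -48 where the first transcribed base is +1, and the *Gar1* window held none. Of 48 listed genes with a window in the table, 7 had the motif (14.6%), against 8.09% of all 27025 genes. These were *Ltv1*, *Nop2*, *Pes1*, *Rrn3*, *Utp18*, *Utp20* and *Wdr43*, and apart from *Rrn3* their log2 fold changes lay between 0.00 and 0.17 with no call. TTTGGCGC, a site of E2F factors, was in the window of *Ncl*, or 2.08% of the listed genes against 0.585% of all, and TTTCCCGC, another E2F site, was in those of *Nolc1* and *Nop58*, or 4.17% against 1.24%. Both were searched on both strands, and none of the 3 genes passed the test. A match is a description of these letters and not evidence of binding.

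Among nucleolar scaffold and chaperone genes, *Tcof1* rose. It encodes treacle, a nucleolar phosphoprotein that works with UBTF in ribosomal DNA transcription and is mutated in human Treacher Collins syndrome. Its values were 10.32, 10.24 and 10.08 in knockdown and 9.48, 9.79 and 9.92 in control. All knockdown values lay above all control values, and the controls were spread more widely. The means were 10.21 ± 0.12 in knockdown and 9.73 ± 0.22 in control (SD, n = 3 each), a log2 fold change of 0.48 (SE 0.14, limma adjusted p = 0.0456). Without single arrays the value lay between 0.36 and 0.57, and of the 6 arrays only knockdown replicate 3 could be left out without losing the call. The adjusted p was 0.175 without knockdown replicate 1, 0.161 without knockdown replicate 2, 0.104 without control replicate 1, 0.0513 without control replicate 2 and 0.0839 without control replicate 3. It was 0.0671 without the filter and 0.212 when clusters with no single gene name were tested as well.

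**Figure D2:**
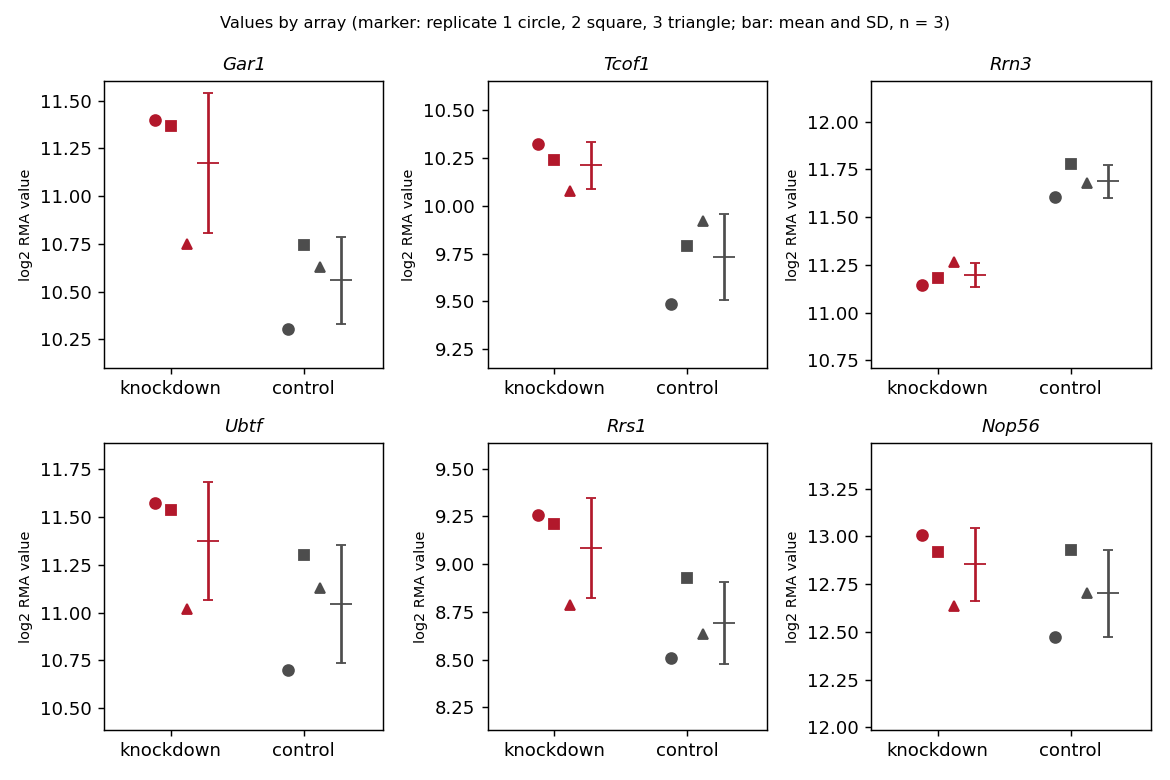
Log2 expression (y axis) of *Gar1*, *Tcof1*, *Rrn3*, *Ubtf*, *Rrs1* and *Nop56* on each array, knockdown (red) left and control (grey) right. Circles, squares and triangles are replicates 1, 2 and 3, and the bars beside them give the mean and SD (n = 3 per group). Knockdown replicate 3 and control replicate 1 are the lowest of their groups in every panel except that of *Rrn3*, where control replicate 1 alone is.

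*Nolc1*, which encodes the snoRNP chaperone NOPP140, had 11.09, 11.18 and 10.91 in knockdown and 10.55, 10.85 and 10.91 in control. Its log2 fold change of 0.28 did not pass the test (limma adjusted p = 0.189). The transcripts of the abundant nucleolar proteins nucleolin and nucleophosmin showed little difference. *Ncl* had 12.64, 12.59 and 12.45 in knockdown and 12.32, 12.64 and 12.40 in control, a log2 fold change of 0.11 (limma adjusted p = 0.615). *Npm1* had 12.17, 12.25 and 12.17 in knockdown and 12.01, 12.37 and 12.24 in control and was removed by the filter, with a log2 fold change of -0.01 and a 95% interval of -0.24 to 0.22. A further 3 clusters name *Npm1* together with other symbols and were not used. The helicase gene *Ddx21*, whose product acts in both ribosomal DNA transcription and rRNA processing, had 0.08.

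In box C/D snoRNPs, which place methyl groups on the ribose of rRNA, none of the 3 measured genes passed the test. *Nop56*, a core scaffold of the particle, had 13.00, 12.92 and 12.64 in knockdown and 12.47, 12.93 and 12.70 in control, a log2 fold change of 0.15 (limma adjusted p = 0.518). *Nop58*, its partner, had 0.16 (adjusted p = 0.592). *Fbl* encodes the methyltransferase fibrillarin and had 11.49, 11.34 and 11.25 in knockdown and 11.27, 11.42 and 11.47 in control, a log2 fold change of -0.03 (adjusted p = 0.893). The groups overlapped for each of the 3 genes.

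The 16 genes of the small subunit processome and 40S maturation had log2 fold changes from -0.04 to 0.22. The filter kept 8 of them, and none of these 8 passed the test, against 7.54% of all genes tested. The group includes subunits of the processome that meets the pre-rRNA while it is transcribed (*Heatr1*, *Utp15*, *Wdr43*, *Wdr75*), which had values of -0.03, 0.08, 0.10 and -0.04. *Wdr75* had 11.69, 11.69 and 11.60 in knockdown and 11.56, 11.84 and 11.69 in control. *Rrp12* had the largest difference of the group (0.22, limma adjusted p = 0.378). *Nob1*, the endonuclease that makes the end of 18S rRNA, had 11.62, 11.41 and 11.71 in knockdown and 11.69, 11.46 and 11.58 in control, and was unusual in that control replicate 1 was its highest control. *Noc4l* had knockdown values of 9.95, 9.92 and 9.89 and control values of 9.44, 9.88 and 9.86. It did not overlap between groups but was removed by the filter, with a log2 fold change of 0.19 that rested on control replicate 1. All 16 genes had a 95% interval within a factor of 1.5 in either direction.

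Of the 19 measured 60S assembly genes, 18 (94.7%) had a positive difference, against 58.4% of all genes. The filter kept 15 of them, and none of these 15 passed the test, against 7.54% of all genes tested. Without control replicate 1 only 7 of the 19 (36.8%) had a positive difference, against 60.1% of all genes. The median of the group was then -0.017. Leaving out knockdown replicate 3 as well, chosen after the values were seen, gave 15 (78.9%), against 60.3% of all genes. The median was then 0.076. *Rrs1*, whose yeast homologue brings the 5S particle into the early 60S subunit, had 9.26, 9.21 and 8.79 in knockdown and 8.51, 8.93 and 8.64 in control. Its log2 fold change of 0.39 did not pass (limma adjusted p = 0.123), but did so without knockdown replicate 3 (0.54, adjusted p = 0.0324). *Mrto4*, whose yeast homologue takes part in assembly of the ribosomal stalk, had 10.10, 10.02 and 9.81 in knockdown and 9.28, 9.79 and 9.77 in control. The groups did not overlap and the log2 fold change was 0.36 (adjusted p = 0.141). *Gar1*, *Tcof1*, *Mrto4* and *Noc4l* were the 4 of 53 genes with every knockdown value above every control value, a pattern seen for 12.8% of all genes.

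*Pes1*, *Bop1* and *Wdr12* encode the PeBoW complex, which is needed for maturation of the 60S subunit in mammals, and had log2 fold changes of 0.05, 0.03 and -0.02. *Wdr12* had 10.00, 10.05 and 9.68 in knockdown and 9.83, 10.16 and 9.80 in control (limma adjusted p = 0.946). *Nop16* had 12.32, 12.24 and 12.01 in knockdown and 11.94, 12.10 and 11.98 in control, a log2 fold change of 0.18 (adjusted p = 0.357). The remaining 60S genes, including the GTPase genes *Gnl2* (0.07) and *Gnl3* (0.11), lay between 0.00 and 0.20.

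The genes *Ddx18*, *Fbl*, *Mrto4* and *Wdr12* had 2 clusters each, of which the brighter was kept. In the order of cluster numbers, the kept clusters of *Mrto4*, *Ddx18* and *Wdr12* stood among genes of chromosomes 12, 6 and 7, whereas the genes are annotated on chromosomes 4, 1 and 1. Whether these clusters measure the gene itself or a copy elsewhere was not settled here, and their values are uncertain in that respect. The other cluster gave 0.35 for *Mrto4*, where the kept one gave 0.36, 0.28 for *Ddx18* (kept 0.17), and -0.14 for *Wdr12* (kept -0.02). The second cluster of *Fbl* had 0.0029. Using the cluster among genes of the own chromosome left the same 3 genes past the threshold.

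The ribosome biogenesis genes were slightly higher in knockdown as a set, with a median log2 fold change of 0.08 against 0.03 over all genes, a description with no test. Of the 53 genes, 44 (83.0%) had a positive difference, against 58.4% of all genes. The values ranged from -0.49 for *Rrn3* to 0.61 for *Gar1*. By role, the median was -0.01 for RNA polymerase I, 0.09 for the small subunit, 0.15 for box C/D, 0.25 for box H/ACA, 0.07 for 60S assembly and 0.11 for scaffolds and chaperones. For 47 of the 53 genes (88.7%) the difference between groups was smaller than the range of the control arrays, which was so for 75.6% of all genes. The 95% interval lay within a factor of 1.5 in either direction for 45 genes, reached above it for 7 (*Ubtf*, *Nop58*, *Dkc1*, *Gar1*, *Rrs1*, *Mrto4* and *Tcof1*) and below it for *Rrn3*.

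The sign of this small shift turned when control replicate 1 alone was left out. The sign did not turn when knockdown replicate 3 was left out as well. The genes moved together from array to array within each group: control replicate 1 was the lowest control for 51 of the 53 genes (96.2%), against 30.8% of all genes, and knockdown replicate 3 was the lowest knockdown array for 46 (86.8%), against 44.8% of all genes. The exceptions among controls were *Nob1* and *Wdr12*. Set against the mean of the controls, the mean of the 53 genes was 0.20, 0.16 and -0.04 for the knockdown arrays, in replicate order, and -0.20, 0.15 and 0.05 for the control arrays. Knockdown replicates 1 and 2 thus lay close to control replicate 2, and knockdown replicate 3 lay below control replicates 2 and 3.

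**Figure D3:**
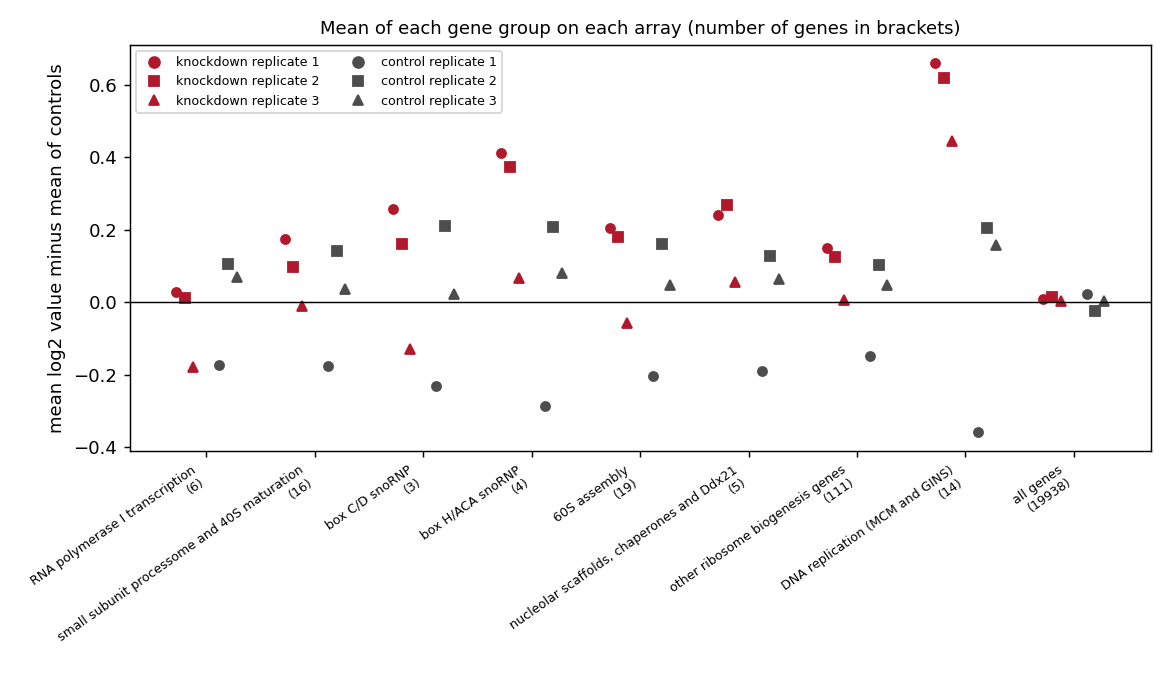
Mean log2 expression on each array, minus the control mean of the same genes (y axis), for each role group, other ribosome biogenesis genes, DNA replication genes and all genes (x axis), with knockdown arrays (red) left of control arrays (grey) and a marker shape for each replicate number. In the 6 role groups control replicate 1 is the lowest control and knockdown replicate 3 the lowest knockdown array, the mean of all genes stays near 0, and the DNA replication genes are above 0 on all 3 knockdown arrays.

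Without control replicate 1 the median of the 53 genes was -0.00047, against 0.04 for all genes, and 26 genes (49.1%) had a positive difference, against 60.1% of all genes. The difference was lower than with all arrays for 52 of the 53 genes, with a median shift of -0.10. This count follows from the low rank of control replicate 1 among the controls and is no separate result. Without knockdown replicate 3 the median was 0.16, against 0.04 for all genes. Without both arrays, a setting chosen after the values were seen, the median was 0.08, against 0.05 for all genes. In that setting 37 genes (69.8%) had a positive difference, against 60.3% of all genes. There *Rrn3* (-0.56, limma adjusted p = 0.0234), *Gar1* (0.70, 0.0188) and *Tcof1* (0.42, 0.0400) all passed the test. The number of changed genes thus stayed at 3 of the 53, while that over all genes rose from 752 to 1623. *Rrn3* also passed without control replicate 1 alone (-0.53, adjusted p = 0.0370), and unlike most of these genes it was highest on knockdown replicate 3 among the knockdown arrays.

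**Figure D4:**
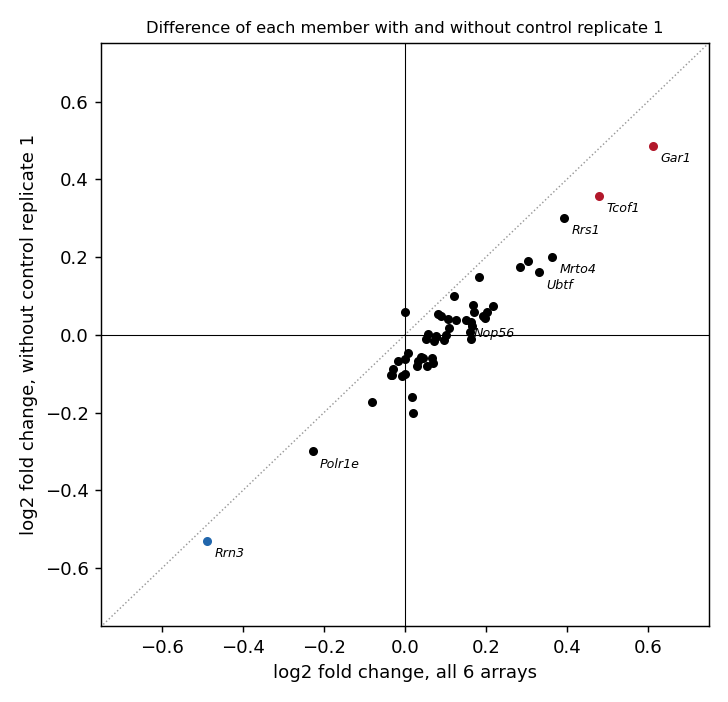
Log2 fold change of each of the 53 genes with all 6 arrays (x axis) and without control replicate 1 (y axis), with a dotted diagonal at equal values and the genes past the test with all arrays in red (higher) and blue (lower). Of the points, 52 lie below the diagonal, and 27 lie below 0 on the y axis.

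Of 111 other measured ribosome biogenesis genes, 59 passed the filter, 1 rose (*Tsr2*, a chaperone of the ribosomal protein RPS26 in yeast and human, log2 fold change 0.56) and 0 fell, so that 1.69% of those tested were called, against 7.54% of all genes. Their median was 0.09, with 87 (78.4%) above 0, against 58.4% of all genes, and control replicate 1 was the lowest control for 91 (82.0%), against 30.8% of all genes. Without that array their median was 0.0043. Of 61 cytosolic ribosomal protein genes only 10 passed the filter, and 0 rose or fell (median 0.02), with the testis paralogue *Rpl10l* at 0.16. For 30 of these 61 genes the kept cluster stood among genes of another chromosome, and which copy these measure was not settled here. Among 77 mitochondrial ribosomal protein genes 30 passed the filter, *Mrpl30* fell (-0.60) and none rose (median 0.07). This was 3.33% of those tested, against 7.54% of all genes. Of 8 genes for snoRNA hosts and related RNAs, 5 passed the filter and 1 of these (20%), *Snhg5*, rose (0.45), against 7.54% of all genes called. The median of the 8 genes was 0.06, and -0.06 without control replicate 1.

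*Myc* had 12.38, 12.24 and 12.26 in knockdown and 12.14, 12.32 and 12.30 in control, a log2 fold change of 0.04 (unadjusted p = 0.638 in the limma fit without the filter). *Mycn* had 10.23, 10.12 and 10.34 in knockdown and 10.23, 10.26 and 10.20 in control, a log2 fold change of 0.0014 (unadjusted p = 0.987). Neither passed the filter. Of 11 measured genes of the MYC network 4 passed the filter. Among these 1 (25%) was called, against 7.54% of all genes: *Mxd3*, a partner of MAX that represses transcription, rose (0.55).

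DNA replication genes had more calls and larger values. Of 14 genes for the MCM helicase, GINS and their loaders, 13 passed the filter, 10 rose and none fell. The called genes were 76.9% of those tested, against 7.54% of all genes. The median log2 fold change was 0.59, with the largest values for *Cdc6* (0.87), *Mcm3* (0.80) and *Mcm4* (0.72). Control replicate 1 was the lowest control for all 14 as well, but without it their median was still 0.42, where that of the ribosome biogenesis genes was -0.00047. The difference between the lists was not tested.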

How the data were processed

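RNA from 3 *Paupar* knockdown and 3 control samples was hybridised to 1 array each. The deposited values are log2 expression values: the authors applied RMA, with its background correction, quantile normalisation and probe summary (no version stated). The series table held 35556 transcript clusters, of which 21789 had 1 symbol, 1621 several and 12146 none in the platform annotation. Of those with 1 symbol, 21698 matched RefSeq (GRCm38.p6) by Entrez identifier, with 0 symbols changed. The cluster with the highest mean was kept for each gene. As the study's methods used a variance cut-off of 0.5, the lower 50% of genes by interquartile range were removed, leaving 9969. The difference, knockdown minus control, was fitted with limma 3.58.1 under R 4.3.3 (lmFit, then eBayes) and adjusted by Benjamini-Hochberg over all genes tested, at a threshold of 0.05. Intervals and the values of genes removed by the filter come from the same fit to all 19938 genes. Standard errors are those of limma after the filter. The steps were tested on simulated data. The number of arrays limits the precision.

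The genes, their role groups and the comparison lists were chosen with earlier results of these data known. The text names, by rule, genes past the threshold, the gene with the highest mean and the gene that moved most against its group's median in each role group, up to 3 changed genes (or 1 value) of each comparison list, and *Myc* and *Mycn*. *Dkc1*, *Rrs1*, *Mrto4*, *Nolc1*, *Polr1e*, *Noc4l*, *Rrp12* and *Nob1*, and genes given with a value only, were named after their values were seen. The position of a cluster was judged from the chromosomes of 10 clusters on each side in number order, which matched the annotated chromosome for 96.8% of clusters.

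Alternatives tried were no filter or other filters, the mean of all clusters of a gene, all clusters kept before the filter, unnamed ones included, centred arrays, a mean-variance trend, array weights, a replicate block, leaving out each array, and 2 settings added after the data were seen, namely leaving out knockdown replicate 3 and control replicate 1 together and taking the cluster among genes of the own chromosome.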

Additional observations from a re-analysis of the deposited data

How the results depend on the processing

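The median of the ribosome biogenesis genes, 0.08 with all arrays, lay between -0.00047 (without control replicate 1, where its sign turned) and 0.16 (without knockdown replicate 3). Keeping all clusters, unnamed ones included, before the same filter left 17778 to test and gave 0 changed clusters (3015 had an unadjusted p under 0.05 in limma) and 0 ribosome biogenesis genes, with an adjusted p of 0.171 for *Rrn3*, 0.233 for *Gar1* and 0.212 for *Tcof1*. Array weights gave knockdown replicate 3 (0.312) and control replicate 1 (0.289) little weight and control replicate 3 the most (4.44). With them 5561 of all 9969 genes tested changed. Of the 38 ribosome biogenesis genes tested 14 did, 12 higher and 2 lower, a smaller share than of all genes. *Ubtf*, *Nop56*, *Nop58*, *Nop16*, *Dkc1*, *Nhp2*, *Rrs1*, *Rrp12*, *Mrto4*, *Nolc1* and *Polr1e* passed in addition. Without the filter 1 of these genes passed (*Rrn3*) and 0 were higher, with an adjusted p of 0.0991 for *Gar1* and 0.0671 for *Tcof1*. With centred arrays 1 gene was higher (*Tcof1*), as *Gar1* had an adjusted p of 0.0505.

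Leaving out single arrays gave 112 to 1239 changed genes, against 752 with all arrays, and 0 to 4 ribosome biogenesis genes, of which 0 to 3 were higher and 0 to 1 lower. Without control replicate 1 and knockdown replicate 3 together 1623 genes changed. Small differences with no call turned sign: *Wdr75* lay between -0.10 and 0.037 and *Fbl* between -0.10 and 0.025 when single arrays were left out. *Nop10* was -0.054 with array weights and -0.17 without both arrays (single arrays -0.16 to 0.16). *Wdr12* was 0.0023 with centred arrays, 0.16 with array weights and 0.049 without both arrays (single arrays -0.088 to 0.10). *Npm1* was 0.012 with centred arrays (single arrays -0.11 to 0.074). The cause of these changes was not tested. The settings not named here kept the same 3 genes past the threshold.

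Samples with the same replicate number did not deviate together (correlations of -0.288, 0.0624 and 0.0751). Those with different numbers had correlations from -0.316 to 0.374. Deviations from a mean of 3 arrays cannot decide whether the numbers pair the samples. With the replicate number as a block 680 genes changed and 2 ribosome biogenesis genes passed, *Rrn3* (limma adjusted p = 0.0326) and *Gar1* (0.0282), so 1 was higher, while *Tcof1* had an adjusted p of 0.0543.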
